A study of Homo sapiens with 8 samples.

Results

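The transcripts described here were measured on 4 of the series' 8 arrays, those of 786-O cells labelled HIF2a-null that received DMSO or PT2399. Arrays were chosen by title and set against each other by time: PT2399 minus DMSO at 24 h, and PT2399 minus DMSO at 48 h. 786-O is an established clear cell renal carcinoma line that lacks working VHL. PT2399 was given at 2 uM, and each combination of genotype, agent and time has 1 array, so the pairs at 24 h and 48 h are the only repeats of the treatment. How the null cells were made, and whether they are 1 clone or a pool, is not stated in the labels. The growth protocol speaks of null cells for all 8 samples, so genotype was read from the titles and characteristics. Parental and null cells were handled independently, per the series' design text, so a difference in level between them cannot be told apart from one between the experiments.

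HIF2a, encoded by EPAS1, is a hypoxia-inducible transcription factor that binds DNA as a pair with ARNT. VHL marks it for destruction when oxygen is plentiful, and kidney cancers without VHL keep it. PT2399 binds a pocket in the PAS-B domain of HIF2a and keeps it from pairing with ARNT, so cells without HIF2a lack the compound's known target and serve as its control for other effects.

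The authors' values are linear intensities, and each difference is given as log2 of PT2399 over DMSO. Of 18417 genes with a name, 11050 had a mean intensity of at least 118 and were compared. The 4 null arrays had mean intensities of 437 to 463 and medians of 99.4 to 121. EPAS1 stood at 650, 682, 585 and 722 on the null arrays, in the order 24 h DMSO, 24 h PT2399, 48 h DMSO and 48 h PT2399, and at 1277 and 1010 on the parental DMSO arrays. A disrupted gene can still be transcribed, and the labels do not say which bases were changed, so these levels check the genotype only in part. Of 7 kidney tubule markers on the array, PAX8, PAX2 and CDH6 were above the intensity limit, as were 4 of 5 epithelial markers. All 5 endothelial and all 5 leukocyte markers were below it, none of them at 0, with summed intensities of 209 to 351 and of 228 to 318. Of 6 fibroblast and smooth muscle markers 1, ACTA2, was above it, at 160 to 184 on the null arrays. The summed intensities of that class were 402 to 499.5. The summed kidney tubule markers stood at 6644, 6956, 7603 and 4797 in the same order; the lowest value came with CDH6, at 4902 on the 48 h DMSO and 2047 on the 48 h PT2399 array, while PAX2 stood at 339 and 442 there. The summed epithelial markers stood at 5403, 5125, 4765 and 6876.

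The 48 h PT2399 array stood apart from the other null arrays. Over all 11050 genes its log2 values correlated at 0.777 to 0.831 with the other 3, against 0.940 to 0.983 among those 3. It was at least 2-fold above all 3 others for 530 genes and at least 2-fold below them for 822. The corresponding counts were 24 and 24 for the 48 h DMSO array, 10 and 1 for the 24 h DMSO array, and 0 and 0 for the 24 h PT2399 array. The 2 pairs are therefore described separately, and what the 48 h pair shows cannot be told apart from what that 1 array shows.

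At 24 h the null cells with PT2399 differed little from those with DMSO. Only 2 genes were at least 2-fold higher, 0.0181% of those compared, and 21 were at least 2-fold lower, 0.19%. The standard deviation of the difference over all genes was 0.24, against 0.39 in the parental 24 h pair, where 93 genes were higher (0.842%) and 86 lower (0.778%). At 48 h, 1119 genes were at least 2-fold higher (10.1%) and 1791 lower (16.2%) in null cells, with a standard deviation of 0.93. In the parental 48 h pair the counts were 9 (0.0814%) and 28 (0.253%), with a standard deviation of 0.20. The 2 null DMSO arrays themselves differed at least 2-fold for 326 genes (2.95%), against 20 genes (0.181%) between the 2 parental DMSO arrays.

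**Figure D1:**
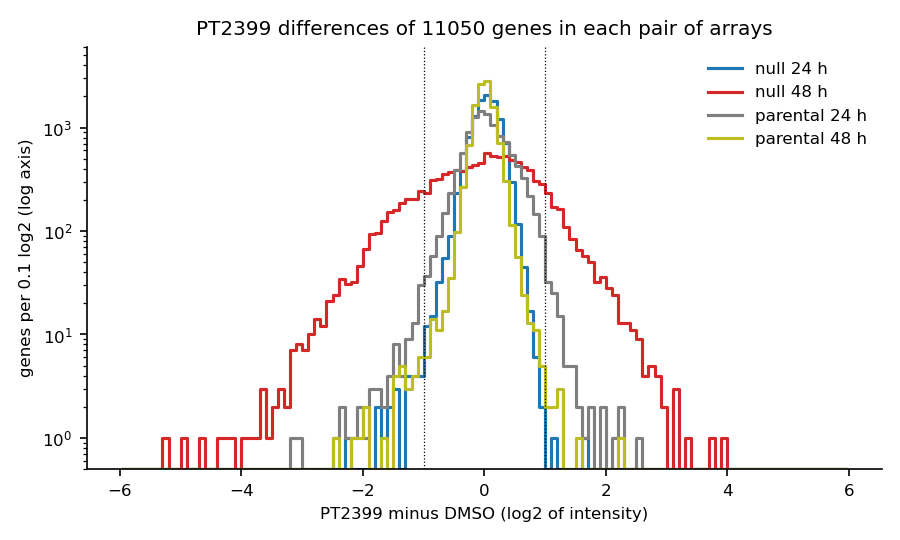
Number of genes (log axis) at each PT2399 minus DMSO difference (log2 of intensity, bins of 0.1) for the null and parental pairs at 24 h and 48 h, with 1 array on each side of a pair. Dotted lines mark 2-fold; the null 48 h curve is far wider than the other 3, with a standard deviation of 0.93 against 0.20 to 0.39.

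A limma fit over all 8 arrays took the 2 times as the repeats of each effect. It called no gene for PT2399 in null cells (lowest adjusted p 0.608 by limma with Benjamini-Hochberg adjustment, 481 genes at an unadjusted p under 0.05, 4.35%). It also called no gene for the difference between the parental and the null effect (lowest adjusted p 0.945, 192 genes at an unadjusted p under 0.05, 1.74%). Without the null 48 h arrays the same fit called 0 genes for either, with 331 (3%) and 560 (5.07%) at an unadjusted p under 0.05. Without the null 24 h arrays, where the null effect is the 48 h pair alone, it called 5137 genes (46.5%) for the null effect and 3477 (31.5%) for the difference. The spread in that fit comes from the parental arrays, and the null 48 h pair is assumed to vary like them.

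Few genes were lower with PT2399 at both times. At least 2-fold lower at 24 h and at 48 h were 8 genes (0.0724%), namely CYCS, CWC25, CSRP2, LEP, CELF4, ANKRD2 and 2 small RNAs, RNU5B-1 and SNORA70D. No gene was at least 2-fold higher at both times. A stricter rule, added after the values had been seen, asked that both PT2399 arrays lie at least 2-fold below both DMSO arrays, and 3 genes met it (0.0271%): CYCS, CWC25 and RNU5B-1. With 50 added to each intensity before log2, CYCS alone met it. In parental cells 23 genes met that rule (0.208%), among them ADM, EGLN3, NDRG1 and CCND1.

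The promoters of the first 2 are shown beside that of ADM, a HIF2a-linked gene that was lower with PT2399 in parental and not in null cells. Each window runs from 250 bases before to 50 after the RefSeq start site on GRCh38.p14, a window of 300 bases, read on the gene's own strand. Capitals mark the core of a HIF binding site, written ACGTG or GCGTG and searched on both strands. CYCS lies on the minus strand at chr7:25125211-25125510, CWC25 on the minus strand at chr17:38825272-38825571 and ADM on the plus strand at chr11:10304823-10305122.
CYCS: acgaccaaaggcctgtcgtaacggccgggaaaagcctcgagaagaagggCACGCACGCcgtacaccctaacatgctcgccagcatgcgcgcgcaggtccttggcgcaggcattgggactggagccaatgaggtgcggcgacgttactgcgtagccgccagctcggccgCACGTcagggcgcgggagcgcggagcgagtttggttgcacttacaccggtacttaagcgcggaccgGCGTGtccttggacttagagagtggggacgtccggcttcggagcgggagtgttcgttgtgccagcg
CWC25: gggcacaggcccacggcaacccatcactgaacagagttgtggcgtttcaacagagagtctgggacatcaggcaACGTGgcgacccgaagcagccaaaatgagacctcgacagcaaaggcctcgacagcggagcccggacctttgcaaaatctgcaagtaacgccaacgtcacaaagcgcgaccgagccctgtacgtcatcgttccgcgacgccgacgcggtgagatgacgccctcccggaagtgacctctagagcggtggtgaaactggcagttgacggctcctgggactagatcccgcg
ADM: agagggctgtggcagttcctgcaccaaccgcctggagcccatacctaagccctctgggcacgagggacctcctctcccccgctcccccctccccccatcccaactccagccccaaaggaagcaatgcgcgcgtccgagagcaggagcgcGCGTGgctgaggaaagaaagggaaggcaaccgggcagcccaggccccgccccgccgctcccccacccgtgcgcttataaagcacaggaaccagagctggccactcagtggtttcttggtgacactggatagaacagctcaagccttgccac
The core occurred at 4 places in the CYCS window and at 1 each in those of CWC25 and ADM. It is short and common: 48.4% of 27305 promoters of this length hold it, and 63.9% of 8888 promoters of the genes compared. Of the 21 genes at least 2-fold lower at 24 h, 14 had a promoter in the table and 12 of these held the core. Of the HIF2a-linked genes, 13 had one and 9 held the core. These matches describe the letters and do not mark sites of binding.

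CYCS encodes cytochrome c, which carries electrons between complexes III and IV of the respiratory chain and triggers caspase activation when released from mitochondria. Its intensity in null cells was 1210 with DMSO and 515 with PT2399 at 24 h, and 1247 with DMSO and 393 with PT2399 at 48 h. Both PT2399 arrays were low and both DMSO arrays high, with no overlap, whichever DMSO array was taken. The difference was -1.23 at 24 h and -1.67 at 48 h, and -1.28 when the 24 h PT2399 array was set against the 48 h DMSO array. In parental cells CYCS stood at 1367, 1372, 1404 and 1437, differences of 0.01 and 0.03. The limma effect in null cells was -1.45 (SE 0.24, lower in 2 of 2 pairs, adjusted p 0.608), and the parental effect exceeded it by 1.47 (SE 0.34, adjusted p 0.945). CYCS has many processed pseudogenes, and how far the probes tell them apart is not given.

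CWC25 encodes a spliceosome-associated protein. It stood at 944 and 344 at 24 h and at 731 and 267 at 48 h with DMSO and PT2399, differences of -1.46 and -1.45 in null cells. The parental values were 440 and 763 at 24 h and 527 and 548 at 48 h, so there the PT2399 arrays were the higher ones. RNU5B-1, a U5 small nuclear RNA of the spliceosome, stood at 879 and 255 at 24 h and at 518 and 206 at 48 h, differences of -1.79 and -1.33. Both PT2399 arrays lay below both DMSO arrays for each of these genes. RNU5B-1 has near-identical copies in the genome, so its own level is uncertain; the copy RNU5A-1 read 2926, 1492, 1596 and 1049 on the same arrays, with the lowest values again on the PT2399 arrays.

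For the other 5 genes the 24 h PT2399 array lay within 0.66 (log2) of the 48 h DMSO array. CSRP2, a LIM-domain protein of smooth muscle, stood at 888, 282, 385 and 123 in null cells, in the order given for EPAS1. LEP, which encodes the hormone leptin, stood at 661, 243, 191 and 62.6. CELF4, an RNA-binding protein best known from neurons, stood at 907, 451, 286 and 54.5. In LEP and CELF4 the 24 h PT2399 array was above the 48 h DMSO array, by 0.35 and 0.66. ANKRD2, a stress-responsive ankyrin-repeat protein of muscle, stood at 408, 202, 219 and 104. SNORA70D stood at 419, 171, 240 and 37.4. In parental cells the same 5 genes differed by -0.37 to 0.73 in either pair.

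**Figure D2:**
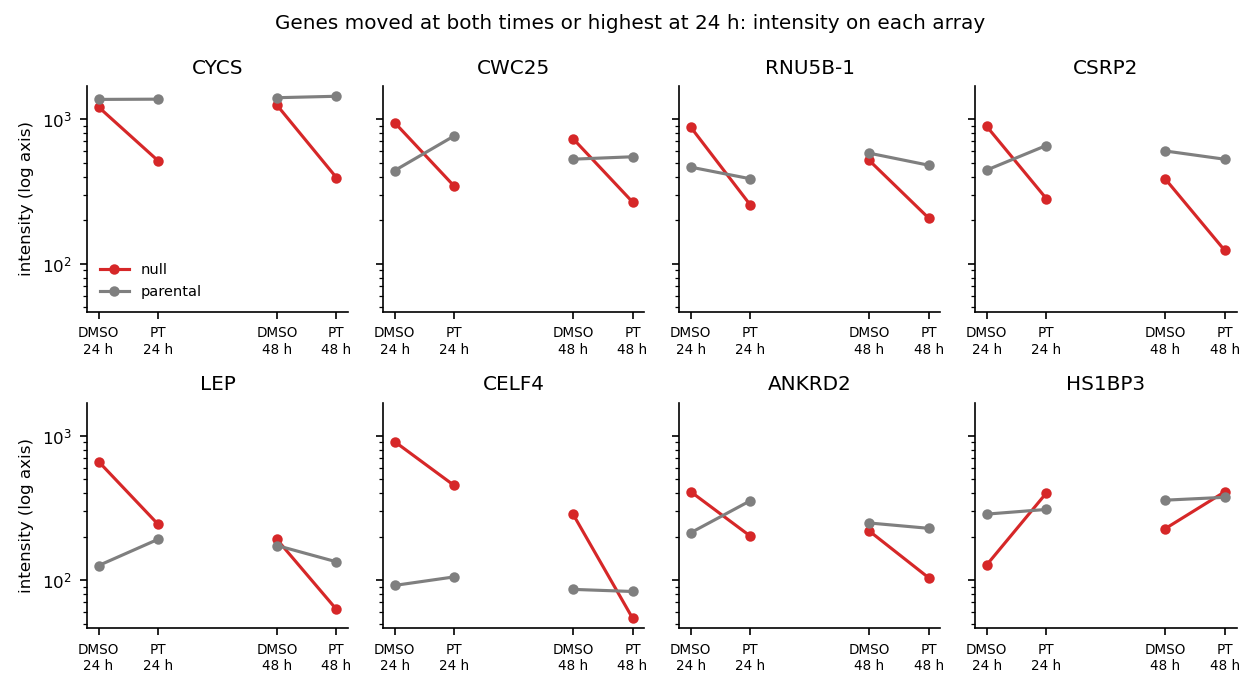
Intensity (log axis) of 8 genes on each array, with a line from DMSO to PT2399 at each time; red is null, grey is parental, and each point is 1 array. CYCS, CWC25 and RNU5B-1 have both null PT2399 arrays below both null DMSO arrays by at least 2-fold; for LEP the 24 h PT2399 array (243) lies above the 48 h DMSO array (191).

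The other genes that were 2-fold lower at 24 h were mostly high on the 24 h DMSO array alone. Of the 21, 13 were also at least 2-fold lower on the 48 h than on the 24 h DMSO array, which 2.17% of all genes compared were. The 2 differences share the 24 h DMSO array, on which a gene of the 21 had to be high, so this count describes the set and is no separate result. Set against the 48 h DMSO array, 15 of the 21 were still lower and 3 still at least 2-fold lower. Of all 11050 genes, 5276 were lower against that array and 68 at least 2-fold lower. In the parental 24 h pair 3 of the 21 were lower, and the median parental difference of the set was 0.56. Of all 11050 genes, 5228 were lower in that pair, with a median of 0.02. Among the 2763 genes of lowest mean intensity, where 8 of the 21 lay, the parental 24 h median was 0.25. PTGDS, prostaglandin D synthase, stood at 600.5, 244, 265 and 147. RTN4RL2, a Nogo receptor relative, stood at 611, 296, 230 and 292, and the high value was again that of the 24 h DMSO array. RPS29, a ribosomal protein, stood at 314, 143, 192 and 427 in null cells and between 1381 and 1677 in parental cells. The remaining genes of the 21 included SSTR5-AS1, KLK11, ZNF473CR, the U4 RNA RNU4-1, 2 uncharacterised loci and the keratin-associated and PNMA family members KRTAP19-5, KRTAP10-12 and PNMA6A, whose relatives are nearly identical.

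MIR210 was one of the 21 and is the microRNA gene best known as a HIF target. It stood at 790 with DMSO and 343 with PT2399 at 24 h, and at 370 and 265 at 48 h, in null cells. The high value is that of the 24 h DMSO array, and the other 3 lay between 265 and 370. The differences were -1.20 and -0.48, and -0.11 for the 24 h PT2399 array against the 48 h DMSO array. In parental cells MIR210 was higher with PT2399 at both times, 331 and 600 at 24 h and 373 and 460 at 48 h. The labels do not say whether the probe set reads the hairpin, a longer precursor or an arm. The arms are shown with the seed, bases 2 to 8, in capitals, as listed by RefSeq on the minus strand of chromosome 11 in GRCh38.p14.
hsa-miR-210-3p: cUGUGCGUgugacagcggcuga
hsa-miR-210-5p: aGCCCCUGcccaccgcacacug
The seeds of the 2 arms differ, so the arms would pair with different target sites. Of 27 microRNA genes above the intensity limit, a list made after seeing the values, 1 was at least 2-fold lower at 24 h in null cells and the median was 0.02, against 0.03 over all genes.

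Only HS1BP3 and TRAPPC2 were at least 2-fold higher at 24 h. HS1BP3, a regulator of autophagosome formation, stood at 127 and 399 at 24 h and at 227 and 407 at 48 h, differences of 1.65 and 0.85. Both PT2399 arrays lay above both DMSO arrays, and in parental cells the differences were 0.11 and 0.07. TRAPPC2, a subunit of a vesicle tethering complex, stood at 72.0, 154, 196 and 175. Its 24 h DMSO array was the low one, and against the 48 h DMSO array the 24 h PT2399 array was lower by 0.35 (log2 -0.35). At 1.5-fold, both PT2399 arrays lay above both DMSO arrays for 3 genes (0.0271%), HS1BP3, LRRC38 and the transcription factor MAFG, and below them for 16 (0.145%), among them CENPE, CEP290, KIF20B and LUC7L.

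**Figure D3:**
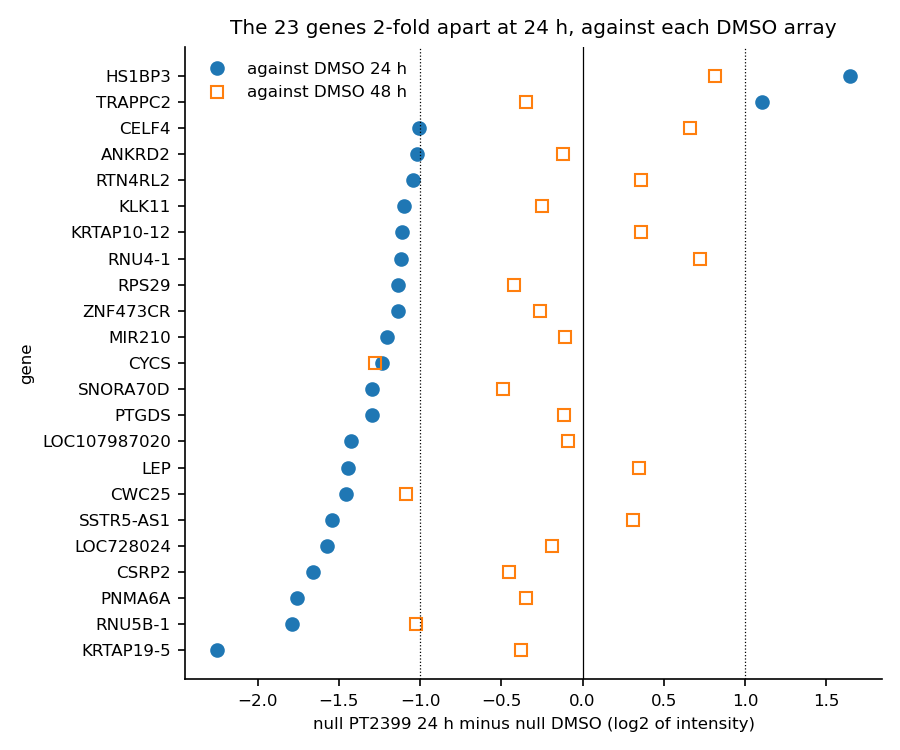
The 23 genes at least 2-fold apart in the null 24 h pair, as log2 of the 24 h PT2399 array over the 24 h DMSO array (filled circles) and over the 48 h DMSO array (open squares). Of the 21 lower genes, CYCS, CWC25 and RNU5B-1 remained at least 2-fold lower against both DMSO arrays.

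The HIF2a-linked genes show what the compound did to the known programme in cells labelled as lacking its target. The list holds 25 genes that HIF2a is known to drive or that were lower in parental cells in earlier results of these data, so their parental direction is no independent result; 22 had a named probe set and 21 passed the intensity limit. CXCR4 was below it, and the others were not analysed here. In null cells at 24 h, 14 were higher and 7 lower, none by 2-fold, with a median of 0.10 and a range of -0.46 to 0.38, against a median of 0.03 over all genes. All 21 lay within 0.5 of 0; EGLN3 and F3, a pair of them, were under the intensity limit on all 4 null arrays and passed it through the parental arrays, so little can be read from them in null cells. At 48 h, 12 were higher and 9 lower, with a median of 0.23 against 0.01 over all genes; 2 were at least 2-fold higher and 1 lower, where the shares over all genes were 10.1% and 16.2%. The parental medians were -1.76 and -1.32, with 15 members at least 2-fold lower at 24 h and 14 at 48 h. In the limma fit of the difference between the genotypes' effects no member passed adjustment over all genes (lowest adjusted p 0.945, and 0.565 without the null 48 h arrays).

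**Figure D4:**
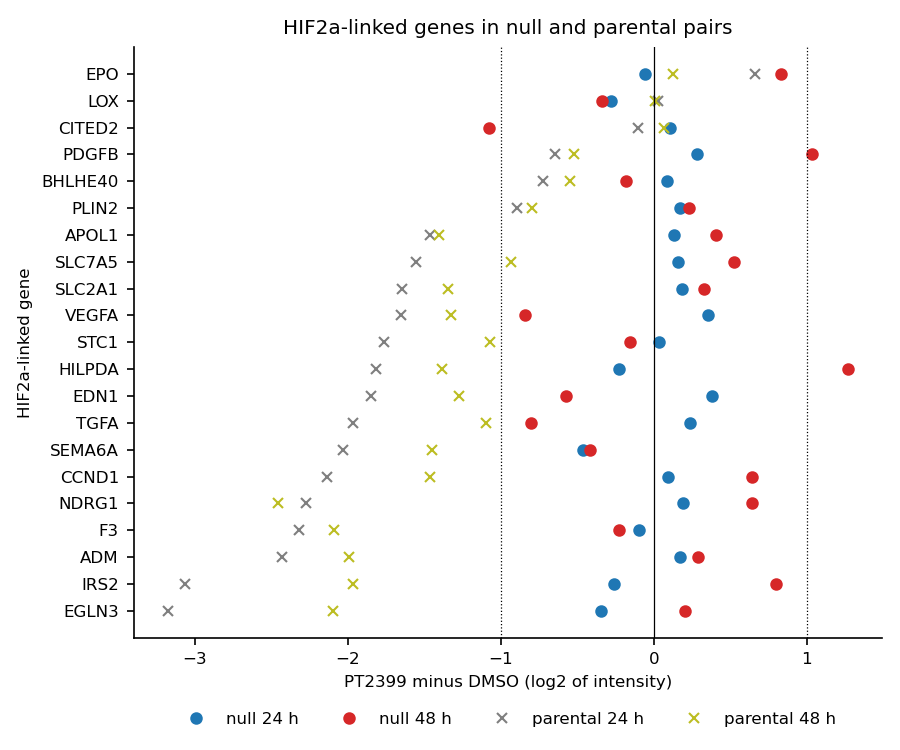
PT2399 minus DMSO (log2 of intensity) of the 21 HIF2a-linked genes, with filled circles for null and crosses for parental pairs, 1 pair per point. All null 24 h circles lie between -0.46 and 0.38, whereas 15 parental 24 h crosses lie at or below -1.

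Among secreted factors in the list, VEGFA, the main angiogenic growth factor, stood at 1979 and 2525 at 24 h and at 2439 and 1361 at 48 h in null cells. It was above its DMSO control at 24 h (0.35) and below it at 48 h (-0.84), and the 48 h PT2399 array was the lowest of the 4. TGFA, which activates the EGF receptor, read 1276, 1501, 1793 and 1029, also above its control at 24 h (0.23) and below it at 48 h (-0.80). ADM, which encodes the vasodilator adrenomedullin, stood at 195, 220, 225 and 274, all above the parental PT2399 values of 160 and 194. EDN1, the vasoconstrictor endothelin-1, stood at 120, 156, 160 and 107, and the growth factor PDGFB at 213, 259, 154 and 315. STC1, a secreted glycoprotein, stood between 241 and 268 on the 4 null arrays, against 893 and 670 in parental DMSO cells.

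SLC2A1, CCND1, HILPDA, PLIN2 and IRS2, genes of metabolism and growth, were higher on the 48 h PT2399 array than on its DMSO array, and lay between -0.26 and 0.18 at 24 h. SLC2A1, the glucose transporter GLUT1, stood at 1042, 1184, 1264 and 1583 and was higher in both null pairs, by 0.18 and 0.32. CCND1, the G1 cyclin D1, stood at 932, 994, 1063 and 1660, highest on the 48 h PT2399 array, and was lower in neither pair; in parental cells it stood at 2026 and 460 at 24 h. HILPDA, which inhibits fat breakdown in lipid droplets, stood at 193, 165, 149 and 359, with a difference of 1.27 at 48 h. PLIN2, a lipid droplet coat protein, stood at 741, 833, 939 and 1102, with differences of 0.17 and 0.23. IRS2, an insulin receptor substrate, stood at 211, 176, 146 and 253, against 1019 and 121 in the parental 24 h pair.

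The feedback and stress genes were close to the intensity limit in null cells or moved little at 24 h. EGLN3, a hydroxylase that marks HIF alpha subunits, stood at 110, 86.9, 73.0 and 84.1, against 95.2 and 132 in parental PT2399 cells and 863 and 566 in parental DMSO cells. NDRG1, a hypoxia-responsive gene, stood at 483, 552, 378 and 590, against 3916 and 810 in the parental 24 h pair. CITED2, which competes with HIF alpha subunits for the coactivator p300, stood at 1944, 2090, 2738 and 1295, a difference of -1.08 at 48 h and 0.10 at 24 h. In 11 of the 21 genes the null DMSO level was under 50 percent of the parental DMSO level at both times. The share over all genes is not given here, and part of the list was chosen for being lower with PT2399 in parental cells. The count therefore only describes the list. Both null PT2399 arrays were above both null DMSO arrays for 3 members (16.7% over all genes) and below them for 2 (12.6%).

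Of the HIF pathway's own components, 12 were compared, and 3 were at least 2-fold apart at 48 h, a share no larger than the 26.3% of all genes. At 24 h none was, with a range of -0.32 to 0.47. HIF1A, the sister subunit of HIF2a, stood at 1319, 1383, 1618 and 607, a difference of -1.42 at 48 h, with the 48 h PT2399 array alone low. CUL2, a scaffold of the VHL ubiquitin ligase, stood at 568, 528, 712 and 305. EGLN1, the main oxygen-sensing HIF hydroxylase, stood at 520, 417, 623 and 1294, highest on the same array. ARNT, the shared partner, stood between 549 and 733 on all 4, and VHL transcript between 339 and 502.

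Several stress and cytokine lists leaned higher at 24 h, and the lean depended on the control array. Of 17 genes of the amino acid and unfolded protein response, 15 were higher, with a median of 0.36, and none was 2-fold higher; over all genes 56.8% were higher, with a median of 0.03. Against the 48 h DMSO array 7 were higher and 10 lower, with a median of -0.01. Of all 11050 genes, 5774 were higher against that array, with a median of 0.03. Of 17 interferon response genes 13 were higher (median 0.35), and against the 48 h DMSO array 5 were (median -0.06). Of 17 cytokine and NF-kB genes 14 were higher (median 0.23), and against the 48 h DMSO array 8 were (median -0.13). By its median, each list on the 24 h PT2399 array was thus closer to the 48 h than to the 24 h DMSO array. CCL20, a chemokine, stood at 397, 751, 1533 and 308, and SLC7A11, the cystine transporter, at 837, 1221, 1532 and 1088. STC2, a secreted target of the unfolded protein response, stood at 470, 713, 734 and 1074, and its 24 h PT2399 and 48 h DMSO values were nearly equal.

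At 48 h, subunits of oxidative phosphorylation were on balance higher on the PT2399 array. Of 67 compared, 53 were higher, 36 of them at least 2-fold, and 14 were lower, 6 of them at least 2-fold; the median was 1.09, against 0.01 over all genes and 0.00 for the list at 24 h. Over all genes at 48 h 10.1% were at least 2-fold higher and 16.2% lower, so the 6 lower members were a smaller share than that of all genes. Against the 24 h DMSO array the median was 0.83, with 32 at least 2-fold higher and 1 lower. Of all 11050 genes, 800 were at least 2-fold higher and 1213 lower in that comparison, with a median of -0.05. NDUFA13, a subunit of complex I, stood at 211, 180, 131 and 2059, a difference of 3.97, the highest of any gene compared. NDUFA1, also of complex I, stood at 891, 897, 542 and 3963. ATP5ME, a subunit of ATP synthase, stood at 1085, 1090, 747 and 4294, and UQCRC1, of complex III, at 402, 345, 249 and 1360. In all 4 genes the 48 h PT2399 array alone was high, and the 48 h DMSO array was the lowest of the other 3. Part of each 48 h difference thus came from the low DMSO value. The members at least 2-fold lower were CYCS, NDUFA12, NDUFA5, ATP5PF, NDUFB5 and UQCRC2. NDUFA12 stood at 709, 882, 1083 and 423, and UQCRC2 at 1666, 2231, 2667 and 1272, so that subunits of complexes I and III lay in both directions.

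Transcripts of mitosis were mostly lower on the 48 h PT2399 array. Of 31 G2/M genes 25 were lower, 15 at least 2-fold, and 2 were at least 2-fold higher, with a median of -0.76. Over all genes 16.2% were at least 2-fold lower and 10.1% higher. Against the 24 h DMSO array the median was -0.58, with 11 at least 2-fold lower. Of all 11050 genes, 1213 were at least 2-fold lower in that comparison, with a median of -0.05. At 24 h the median of the list was -0.05 and none was 2-fold apart. Against the 48 h DMSO array 27 of the 31 were lower on the 24 h PT2399 array, 2 at least 2-fold, with a median of -0.38. Of all genes, 5276 were lower there, 68 at least 2-fold, with a median of 0.03. CENPE, a kinetochore motor, stood at 599, 326, 718 and 79.6, differences of -0.88 and -3.17. HMMR, a spindle protein, stood at 946, 664, 1181 and 169, the mitotic kinase TTK at 507, 474, 894 and 160, and the spindle motor KIF11 at 937, 775, 1188 and 238. CDK1, the kinase that starts mitosis, stood at 458, 361, 852 and 233. UBE2C and PTTG1, a ubiquitin-conjugating enzyme of the anaphase-promoting complex and its substrate securin, went the other way: 607, 696, 513 and 2871 for UBE2C and 807, 1010, 787 and 2599 for PTTG1. CCNB1, cyclin B1, stood at 653, 608, 791 and 1009. Of 34 G1/S genes 3 were at least 2-fold higher and 3 lower, shares that do not exceed those of all genes. Their median was -0.33, and 0.07 against the 24 h DMSO array. E2F1 stood at 274, 203, 176 and 567, and CCNE2 at 241, 241, 336 and 81.2.

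The G2/M genes share promoter letters that the list did not use. The promoter of HMMR, the member with the largest difference at 48 h among those holding both motifs, is shown for chr5:163460382-163460681 on the plus strand of GRCh38.p14, from RefSeq. Capitals mark the CCAAT box, written CCAAT, and the cell cycle homology region CHR, written TTTGAA or TTCGAA, both searched on either strand.
HMMR: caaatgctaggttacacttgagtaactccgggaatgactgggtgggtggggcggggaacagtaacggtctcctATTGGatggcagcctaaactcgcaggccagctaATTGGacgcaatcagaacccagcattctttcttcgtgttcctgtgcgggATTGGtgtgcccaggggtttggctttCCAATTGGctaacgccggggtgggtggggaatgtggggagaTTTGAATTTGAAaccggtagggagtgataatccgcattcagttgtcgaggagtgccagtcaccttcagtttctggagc
The CCAAT box occurred at 5 places in that window and the CHR at 2. Of 26 G2/M genes with a promoter in the table, 21 held a CCAAT box and 19 a CHR, 80.8% and 73.1%, against 35.7% and 16.6% of all 27305 promoters and 3232 and 977 of the 8888 promoters of the genes compared. Among the promoters of genes at least 2-fold lower at 48 h, 14.5% of 1455 held a CHR, against 7.97% of 891 for those at least 2-fold higher.

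Small nucleolar RNAs, which guide the chemical modification of ribosomal and spliceosomal RNA, included the lowest differences at 48 h. Of 108 small nucleolar and Cajal body RNAs 72 were lower, 44 at least 2-fold, and 16 were at least 2-fold higher, with a median of -0.62, where the shares over all genes were 16.2% and 10.1%. A split by name, made after the values had been seen, gave 57 of the C/D box type named SNORD with 32 at least 2-fold lower, 2 higher and a median of -1.65. The 38 of the H/ACA box type named SNORA had 10 at least 2-fold lower and 9 higher, with a median of -0.19. Against the 24 h DMSO array the SNORA median was -1.07, with 19 at least 2-fold lower and 2 higher. The SNORD median there was -1.95, with 43 lower and 2 higher. Of all 11050 genes, 1213 were at least 2-fold lower and 800 higher in that comparison, with a median of -0.05. SNORD42A stood at 1551, 1153, 1029 and 27.2, a difference of -5.24, the lowest of any gene compared. SNORD61 stood at 1052, 826, 524 and 16.4, SNORD28 at 4355, 3641, 2588 and 104, and SNORD44 at 4491, 3986, 2637 and 129. In these 4 the 48 h DMSO array was already lower than both 24 h arrays. Over the whole list 99 of 108 were lower on the 48 h than on the 24 h DMSO array, 48 of them at least 2-fold. Of all 11050 genes, 5222 were lower between those arrays, 240 at least 2-fold. SCARNA5 and SNORA10 went the other way, at 443, 396, 192 and 1111 and at 914, 536, 290 and 1615.

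In a limma fit on the 4 null arrays alone 14 genes passed an adjusted p of 0.05 (0.127%), all lower with PT2399, and 9 of them were small nucleolar RNAs; the rest were CENPE, DUSP9, EZHIP, UBLCP1 and the pseudogene ANKRD20A8P. That fit has 1 residual degree of freedom. A fit without either parental pair of arrays takes its spread from the same 4 null arrays, so it repeats that fit and is no separate result. The same genes were not called over all 8 arrays, where no gene was. For SNORD42A the differences were -0.43 at 24 h and -5.24 at 48 h, and for DUSP9, a phosphatase of MAP kinases, 0.29 and -4.27, so the 2 pairs lay far apart.

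**Figure D5:**
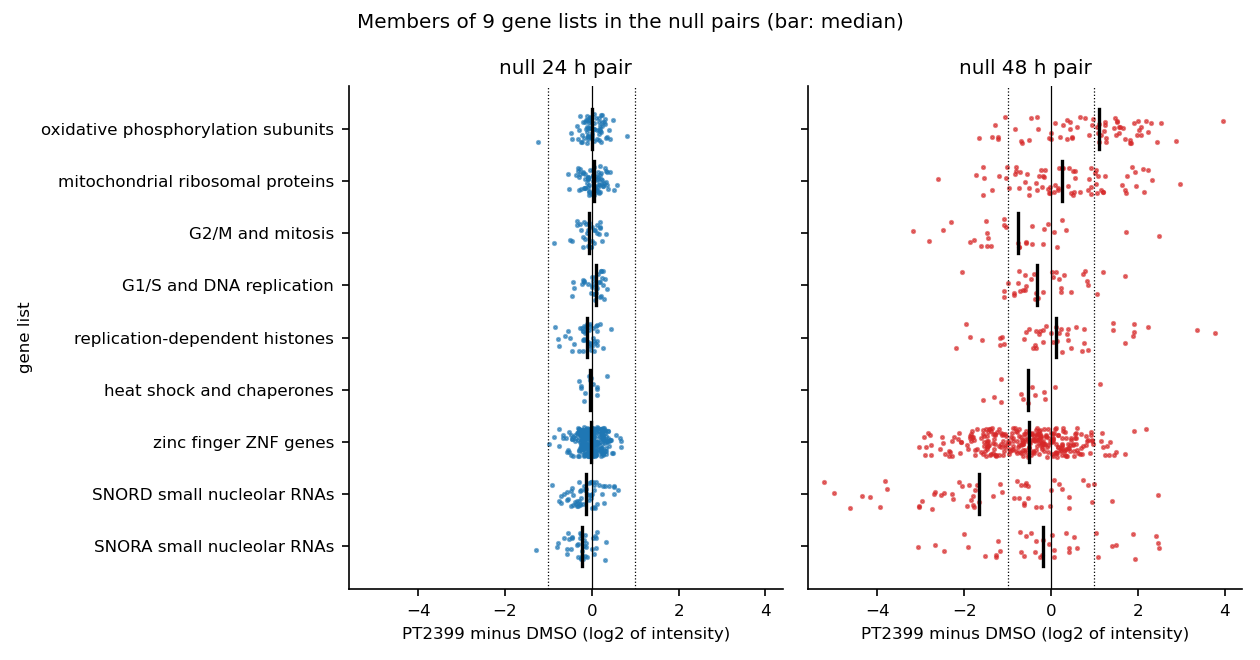
PT2399 minus DMSO (log2 of intensity) of each member of 9 gene lists in the null 24 h pair (left) and the null 48 h pair (right); a point is 1 gene, a bar the list median, dotted lines 2-fold. At 48 h the medians run from 1.09 for oxidative phosphorylation subunits to -1.65 for SNORD RNAs, while at 24 h they lie between -0.24 and 0.09.

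Some single genes lay far from DMSO at 48 h. LSM2, an RNA-binding Sm-like protein, stood at 260, 206, 159 and 1442, LAMTOR4, a subunit of the lysosomal Ragulator complex, at 264, 246, 159 and 1370, and MRPL52, of the mitochondrial ribosome, at 151, 144, 132 and 1029. RPPH1, the RNA of ribonuclease P, stood at 1594, 1245, 670 and 5133. The histone genes H2BC17 and H2BC13 stood at 88.1, 65.9, 85.7 and 1182 and at 105, 74.4, 79.0 and 816, while other histone genes were lower: of 45 compared 9 were at least 2-fold higher and 8 lower. Over all genes the shares were 10.1% and 16.2%, so the share of lower histone genes was near that of all genes. H2BC17 and H2BC13 were under the intensity limit on the other null arrays. Histone genes of 1 type are nearly identical, so single levels are uncertain. The lowest protein-coding genes were DUSP9 (1258, 1534, 1619 and 84.1), AP1S3, an adaptor subunit of vesicle coats (1391, 1688, 1721 and 139), ESCO2, a cohesin acetyltransferase (287, 281, 696 and 57.3), and UBLCP1, a phosphatase of the proteasome (1052, 711, 1265 and 112). In every one of these genes the 48 h PT2399 array lay outside the range of the other 3. The genes were named for a large 48 h difference, so this follows largely from the choice.

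The 48 h difference also moved with the level of a gene. With the genes cut by mean intensity into 4 bins of like size, from lowest to highest, the median difference at 48 h was 0.22, 0.14, -0.10 and -0.32, and at 24 h it was 0.00, 0.02, 0.05 and 0.07. Among the 2763 genes of the highest bin 616 were at least 2-fold lower and 179 higher. Of the 1119 genes at least 2-fold higher at 48 h, 595 were so against the 24 h DMSO array too, and of the 1791 lower ones 944 were. Both differences use the 48 h PT2399 array, so these counts describe the sets and are no separate result. In the parental 48 h pair 421 of the 1119 were higher and 750 of the 1791 lower, with medians of -0.04 and 0.02. Of all 11050 genes, 5632 were higher and 5415 lower in that pair, with a median of 0.004.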

How the data were processed

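Total RNA was extracted with Trizol and biotinylated sense-strand DNA was made with an Affymetrix whole-transcript kit, per the labels' protocols. The authors deposited 33252 probe set values per array as intensity on a linear scale; for background correction, summarisation and scaling the method is not given in the sources. Log2 was taken of each deposited intensity. Of 19460 probe sets with 1 gene, 19429 were found in the RefSeq table of GRCh38.p14 through Entrez and 31 keep the platform's name; 1754 with several genes and 12038 unnamed here were not used for genes. A gene took its probe set with the highest mean, and genes at or above percentile 40 of mean log2 (6.88) were compared. Pairs were counted at 2-fold, with no test, since each side is 1 array. limma 3.58.1 in R 4.3.3 (lmFit, eBayes) fitted, for each genotype, a baseline, the effect of time and the effect of PT2399, leaving 2 residual degrees of freedom; its p-values measure only the spread between time pairs. The number of arrays limits the precision. The fit was tested on simulated data, with like noise on every array and the same shift at both times. That test does not cover an array that stands apart, as the 48 h PT2399 array does here. Genes named are the largest rises and falls of each pair, those 2-fold apart at both times, leading list members and the HIF genes; not every such gene is named. Members, lists and rules were chosen with earlier results of these data known. Alternatives varied scaling, filter, offset, probe set rule, control array and arrays left out. CA9 is not analysed here, and protein lengths were not used here.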

Additional observations from a re-analysis of the deposited data

Results flagged for a closer look

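Probe sets outside the gene comparisons, 13792 that carry several genes or are unnamed here, showed the same contrast between the pairs. Of the 4709 at or above the same intensity limit, 33.9% differed at least 2-fold in the null 48 h pair (635 higher, 959 lower). In the null 24 h pair 2.74% did (9 higher, 120 lower), and between the 2 null DMSO arrays, the level without the compound, 8.71% did. They stand here because no comparison used them.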

How the results depend on the processing

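No paired analysis was possible because each group holds 1 array, as far as replicate numbers go; the fit itself pairs the DMSO and PT2399 arrays by time. The 24 h counts depended on the control, the filter and the threshold. Genes at least 2-fold higher numbered 2, with 1 when 50 was added before log2, 20 with no filter, 1 with a filter at percentile 60, 4 against the mean of both DMSO arrays, 135 against the 48 h DMSO array and 88 at 1.5-fold. Genes at least 2-fold lower numbered 21, with 13, 98, 10, 12, 68 and 143 under the same settings. At 48 h, 1119 genes were higher, with 1888 without a filter, 714 at percentile 60 and 2576 at 1.5-fold, and 1791 were lower, with 3060 at 1.5-fold. The effect in null cells over both times called 0 genes over 8 arrays and 14 in the 4 null arrays alone; leaving out 1 pair of arrays gave 0 to 5137 genes, the most without the null 24 h arrays and 14 without either parental pair. For the difference between genotypes it gave 0 to 3477, the most again without the null 24 h arrays. A fit without either parental pair takes its spread from the same 4 null arrays, so its count in null cells repeats that of the null arrays alone. Both PT2399 arrays at least 2-fold below both DMSO arrays were 3 genes under 4 other settings, 1 with 50 added (CYCS) and 10 with no filter. With the DMSO array of the other time as the control, 7 of the named genes at least 2-fold apart changed sign: at 24 h CELF4 (0.66), KRTAP10-12 (0.36), LEP (0.35), RNU4-1 (0.72), RTN4RL2 (0.36), SSTR5-AS1 (0.31) and TRAPPC2 (-0.35), and RNU4-1 at 48 h too (-0.053). Named genes under 2-fold changed sign there too, such as CCL20 at 24 h, from 0.92 to -1.03. The 8 gene lists moved by more than the DMSO arrays' spread in 10 of 80 comparisons, each with another control. That spread was taken from the same null DMSO arrays that were exchanged as controls, which largely sets this outcome.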

Other observations

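Genes of matrix and collagen stood out by how little they moved at 48 h. Of 20 compared none was at least 2-fold apart, with a range of -0.70 to 0.88, whereas 26.3% of all genes were, and the list's standard deviation was 0.40 against 0.93 over all genes. The list was picked out after its values were seen. At 24 h 14 of the 20 were higher, with a median of 0.12, where 56.8% of all genes were higher.

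Zinc finger genes named ZNF were mostly lower on the 48 h PT2399 array. Of 279 compared 194 were lower, 92 at least 2-fold, and 12 were at least 2-fold higher, with a median of -0.50 against -0.03 at 24 h. Over all genes at 48 h 50.7% were higher, and 16.2% were lower and 10.1% higher by 2-fold or more. ZNF493 stood at 895, 874, 1288 and 170 in the order 24 h DMSO, 24 h PT2399, 48 h DMSO and 48 h PT2399. Heat shock and chaperone genes were also lower, 11 of 13, with a median of -0.52; HSP90AA1, a major cytosolic chaperone, stood at 3583, 2999, 3970 and 1776, and DNAJB1 went the other way at 246, 266, 215 and 470. Proteins of the mitochondrial ribosome lay in both directions: of 73, 21 were at least 2-fold higher and 9 lower, with MRPL24 at 304, 410, 322 and 1616 and MRPL42 at 260, 230, 565 and 93.5. Of 33 core spliceosome genes 4 were at least 2-fold higher and 5 lower, shares near those of all genes, with SNRPD2 at 654, 487, 368 and 2328 and CWC27 at 451, 485, 577 and 132.

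Single genes of stress and inflammation were among those far apart at 48 h. ISG15, an interferon-induced ubiquitin-like protein, stood at 194, 181, 195 and 1143. The NF-kB subunit RELB stood at 269, 315, 206 and 998, while the cytokine IL18 stood at 727, 849, 1338 and 189. PPP1R15A, which ends the integrated stress response, stood at 392, 593, 473 and 2120.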
